A study of Mus musculus with 15 samples.

Results

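The genes described here are 47 mouse genes of the actin cytoskeleton and the focal adhesion, chosen by name as a module. They comprise 2 actins, 4 filament crosslinkers, 12 focal adhesion proteins, 7 other LIM domain proteins, 3 stress fibre scaffolds, 4 genes of the myosin motor and its kinase, 6 actin filament binding proteins, 3 genes of actin assembly and turnover, and the 6 signalling genes Srf, Mrtfa, Rock1, Rock2, Rhoa and Rhob. All 47 were found among the 18078 genes of the deposited tables. RNA sequencing was carried out on 15 libraries of primary lung fibroblasts, mesenchymal cells taken from the lung and kept in culture, of wild-type genotype and the BALB/cJ strain. The 5 groups of 3 libraries were IL-33/13/17A (IL-33, IL-13 and IL-17A together), IL-33/13 (IL-33 and IL-13), IL-33/17A (IL-33 and IL-17A), IL-33 alone, and untreated cells, all sampled at 20 h. IL-33 is released by damaged barrier cells, IL-13 drives type 2 responses, and IL-17A is made by T helper 17 cells and related lymphocytes. The labels name no age, dose, culture or animal. It is therefore not known whether the libraries of a group came from separate cultures, and every p-value refers to the spread among these libraries alone, which could be technical. The question was how the module changes with these cytokines, alone and combined.

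Fibroblasts hold actin in contractile bundles called stress fibres, in which filaments are crosslinked by alpha-actinin and filamin and pulled by non-muscle myosin II. The bundles end in focal adhesions, where talin, vinculin, paxillin and the complex of integrin-linked kinase, PINCH and parvin connect actin to integrins and through them to the matrix. The GTPase RhoA and its kinases ROCK1 and ROCK2 drive assembly and contraction, and the drop in free actin monomer releases the coactivator MRTF-A (Mrtfa), which joins the serum response factor SRF at CArG boxes of many genes of this same apparatus.

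The CArG box is therefore shown first, in members whose annotated promoter carries one. Promoter windows from RefSeq (GRCm38.p6, 250 bases before to 50 bases after a transcript start) were found for 38 of the 47 members. Those of Actb, Tln2, Pxn, Ptk2, Parva, Lims2, Tgfb1i1, Csrp2 and Rock1 were not among them. A CArG box, whose pattern reads the same on both strands, was present in 7 of these 38 members (18.4%), against 488 of all 27025 genes with a window (1.81%). By window, 8 of 55 member windows (14.5%) and 535 of all 32851 windows (1.63%) held one. The 7 members were Fhl1, Vcl, Fhl2, Cnn2, Actg1, Myl6 and Srf, and Srf, which encodes the factor itself, held 2 boxes at -82 and -62 from its start. The 6 stretches below belong to the members with a box that had the largest log2 changes in any comparison, and are written 5′ to 3′ on the strand of the gene with the box in capitals. The box began at -102 in Fhl1 (chrX:56779536-56779635, plus strand), at -227 in Vcl (chr14:20929148-20929225, plus strand), at -31 in Fhl2 (chr1:43163962-43164037, minus strand), at -56 in Cnn2 (chr10:79988499-79988598, plus strand), at -90 in Actg1 (chr11:120348531-120348630, minus strand) and at -50 in Myl6 (chr10:128493010-128493104, minus strand), all on GRCm38.p6.
Fhl1: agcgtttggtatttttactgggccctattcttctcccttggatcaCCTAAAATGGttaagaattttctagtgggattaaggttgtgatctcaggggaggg
Vcl: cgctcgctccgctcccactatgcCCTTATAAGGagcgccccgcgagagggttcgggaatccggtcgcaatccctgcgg
Fhl2: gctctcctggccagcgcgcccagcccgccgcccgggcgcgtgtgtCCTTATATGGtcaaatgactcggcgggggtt
Cnn2: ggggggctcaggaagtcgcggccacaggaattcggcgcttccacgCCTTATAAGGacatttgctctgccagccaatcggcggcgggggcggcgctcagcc
Actg1: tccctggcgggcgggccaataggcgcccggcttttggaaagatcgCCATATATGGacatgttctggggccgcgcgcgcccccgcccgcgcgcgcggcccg
Myl6: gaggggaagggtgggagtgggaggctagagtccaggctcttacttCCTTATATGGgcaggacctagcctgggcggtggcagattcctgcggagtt
A second motif, CATTCC, the core bound by TEAD factors, was searched on both strands. It was found in 11 of the 38 members (28.9%), against 16.6% of all genes with a window. The 11 were Lmod1, Mylk, Vcl, Flnc, Palld, Flna, Myh10, Actn4, Tagln2, Cald1 and Pfn1. A match describes these letters, and binding was not measured.

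Depth, estimated from the value that a single read is worth, was 10554595 to 15123270 reads on genes per library. The 13 mitochondrial genes took 3.50% to 3.87% of TPM in 6 libraries (all 3 of IL-33/13, replicates 2 and 3 of IL-33/17A and replicate 1 of IL-33/13/17A) and 4.77% to 6.13% in the other 9. These 6 libraries are called the low mitochondrial set below. No untreated or IL-33 library belongs to it, and all of IL-33/13 does, so a fitted term for the set is estimated from the libraries of IL-33/17A and IL-33/13/17A, the groups it splits. Fibroblast markers were abundant, with 9 of 10 at 10 TPM or more (highest Col1a1, 4658 TPM on average). Macrophage markers were abundant too, with 13 of 14 at 10 TPM or more (highest Lyz2, 9363 TPM). No endothelial or epithelial marker reached 10 TPM. In bulk RNA, fewer cells of a type and less RNA per cell cannot be told apart.

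To compare genes with each other, TPM was rescaled from the span of the gene, by which the deposited values are divided, to its exonic length. On that scale the cytoplasmic actins led in untreated cells with 4461 TPM for Actb and 2964 TPM for Actg1, followed by Tpm4 with 1688 TPM, Csrp1 with 1337 TPM, Cfl1 with 1209 TPM and Flna with 1142 TPM. Palld stood in the middle of the order with 206 TPM. Tln2 with 13.4 TPM, Synpo2 with 4.19 TPM and Sorbs2 with 0.529 TPM were the least abundant. Values below are TPM as deposited, per span, and are compared only within a gene, except where exonic length is named.

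Most of the module fell. In IL-33/13/17A cells 40 of the 45 members tested were lower than in untreated cells and 1 was higher, at an adjusted p under 0.05 in limma over all 13887 genes tested, 42.7% of which were called (12.6% higher, 30.1% lower). In IL-33/13 cells 35 members were lower and 2 higher, where 49.6% of all genes were called (14.5% higher, 35.1% lower). In IL-33/17A cells 37 members were lower and 1 higher, where 37.7% of all genes were called (10.7% higher, 27.0% lower). In IL-33 cells 25 members were lower and 1 higher, where 14.2% of all genes were called (5.92% higher, 8.28% lower).

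On the scale log2(TPM + 1) the median change of the tested members against untreated cells was -0.63 in IL-33/13/17A, -0.50 in IL-33/13, -0.56 in IL-33/17A and -0.24 in IL-33 cells. The medians over all genes tested were -0.10, -0.12, -0.09 and -0.05 in the same order. These 4 comparisons share the untreated libraries. Scaling the libraries by median ratios shifted the median of all genes by 0.12, 0.13, 0.11 and 0.05. Of all genes called, 52.5%, 52.8%, 53.0% and 56.5% were then higher, against 29.6%, 29.3%, 28.4% and 41.7% on TPM as deposited. Under that scaling the members called lower and higher were 35 and 1 in IL-33/13/17A and 31 and 4 in IL-33/13. They were 33 and 2 in IL-33/17A, and 21 and 1 in IL-33 cells. Of all 13887 genes tested, those called lower and higher were 2572 and 2839 in IL-33/13/17A and 3027 and 3383 in IL-33/13. They were 2182 and 2465 in IL-33/17A, and 853 and 1109 in IL-33 cells.

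On log2(TPM + 1), called falls of 2-fold or more were found in 10 members in IL-33/13/17A and in 6 in IL-33/13 cells. They were found in 8 in IL-33/17A cells and in 1, Fhl1, in IL-33 cells. Those in IL-33/13/17A cells were Lmod1, Mylk, Fhl1, Lims2, Vcl, Csrp1, Fhl2, Cnn2, Myh9 and Rock2. This scale understates low genes. With a pseudocount of 0.1 Csrp2 (-1.04) and Tln2 (-1.20) also passed there, and Palld had -0.99. The share of all genes with falls of 2-fold or more was not counted. All 3 IL-33/13/17A libraries lay below all 3 untreated libraries in 41 of the 47 members. The same held for IL-33/13 in 37, for IL-33/17A in 40 and for IL-33 in 34. How many of all genes separate in this way was not counted, so these counts have no background. Called lower in all 4 conditions were 25 members, in 3 conditions 10, in 2 conditions 2 and in a single condition 3. The 5 others tested were called lower in none. Such patterns were not counted over all genes, so these counts have no background either. Summed over the 47 members, levels were 25139 to 25361 TPM in IL-33/13/17A, 28756 to 29565 TPM in IL-33/13, 25403 to 26824 TPM in IL-33/17A, 30928 to 31457 TPM in IL-33 and 33279 to 33858 TPM in untreated libraries. The group mean was lowest in IL-33/13/17A for 36 members and in IL-33/17A for 8, and highest in untreated cells for 41. The order of group means was not counted over all genes. With libraries outside the low mitochondrial set only, 42 members were called in IL-33/13/17A and 30 in IL-33 cells against untreated cells. The share of all genes called with these libraries is not given for either comparison, so these counts have no background. IL-33/13 has no library outside the set, and IL-33/17A has 1, which gives no spread of its own.

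**Figure D1:**
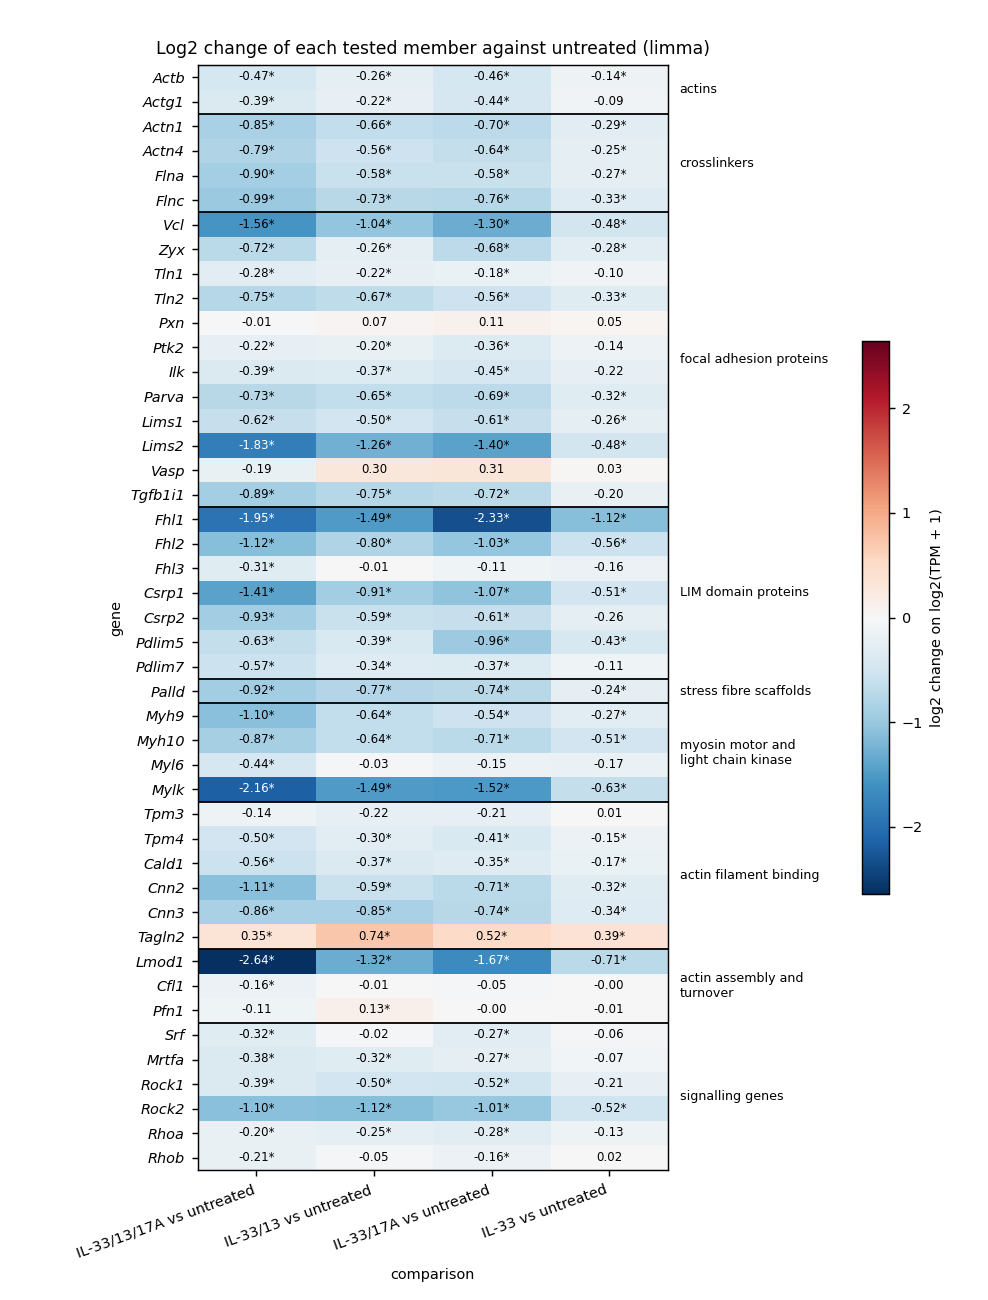
Log2 change on log2(TPM + 1) of the 45 tested members (rows, grouped by role) in IL-33/13/17A, IL-33/13, IL-33/17A and IL-33 cells against untreated cells (columns). Colour and printed values give the change and a star marks an adjusted p under 0.05 in limma. Most fields are blue, deepest for Lmod1 (-2.64), Fhl1 (-2.33) and Mylk (-2.16), while Tagln2 is red in all 4 columns and Pxn, Tpm3 and Vasp carry no star.

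The 2 cytoplasmic actins, which form the filaments, fell modestly. Actb (chr5:142903115-142906755, minus strand, mm10) had 7219, 7378 and 7337 TPM in IL-33/13/17A, 8384, 8598 and 8347 TPM in IL-33/13, 7340.4, 7482 and 7146 TPM in IL-33/17A, 9142, 9261 and 9121 TPM in IL-33 and 9987, 10236 and 10059.9 TPM in untreated libraries. Every treated library lay below every untreated one, and IL-33/13/17A and IL-33/17A overlapped with each other at the bottom. Its log2 change against untreated was -0.47 ± 0.02 in IL-33/13/17A, -0.26 ± 0.02 in IL-33/13, -0.46 ± 0.02 in IL-33/17A and -0.14 ± 0.02 in IL-33 cells (SE; adjusted p = 6.47e-09, 2.58e-06, 1.07e-08 and 0.00134). Under median-ratio scaling the change in IL-33 cells was -0.08 and was not called (adjusted p = 0.216). Actg1 was called lower in the 3 combinations, with 6498 ± 396 TPM in IL-33/13/17A against 8490.3 ± 211 TPM in untreated cells (SD, n = 3). In IL-33 cells its log2 change was -0.09, and the call in IL-33/13 cells was lost under median-ratio scaling (-0.07). Actb and Actg1 are near-identical in their coding sequence, so the split between them is uncertain.

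All 4 crosslinkers, the alpha-actinins Actn1 and Actn4 and the filamins Flna and Flnc, fell in every treated condition against untreated cells, under median-ratio scaling too, and also in each step in which IL-13 or IL-17A was added. Flnc averaged 78.8 ± 0.744 TPM in IL-33/13/17A, 94.5 ± 2.75 TPM in IL-33/13, 92.7 ± 2.46 TPM in IL-33/17A, 125 ± 2.58 TPM in IL-33 and 157 ± 3.20 TPM in untreated cells (SD, n = 3). Its log2 change was -0.99 ± 0.03 in IL-33/13/17A and -0.33 ± 0.03 in IL-33 cells (SE; limma adjusted p = 1.12e-10 and 1.50e-05). In IL-33/13/17A cells Actn1 changed by -0.85, Actn4 by -0.79 and Flna by -0.90. Per exonic length, Actn1 made up 56.8% ± 0.677 of the 2 alpha-actinins in IL-33/13/17A and 57.8% ± 0.249 in untreated cells, and Flnc made up 11.3% ± 0.295 of the 2 filamins in IL-33/13/17A and 12.01% ± 0.191 in untreated cells (SD, n = 3).

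Of the 12 focal adhesion members, 10 fell in IL-33/13/17A, 10 in IL-33/13, 10 in IL-33/17A and 6 in IL-33 cells, and none rose. Lims2, which encodes PINCH2 of the complex with integrin-linked kinase and parvin, had the largest change of these in each of the 3 combinations. It had 5.53, 6.25 and 6.10 TPM in IL-33/13/17A, 9.47, 9.02 and 9.49 TPM in IL-33/13, 8.52, 7.95 and 8.56 TPM in IL-33/17A, 17.4, 17.5 and 15.4 TPM in IL-33 and 25.0, 23.7 and 22.5 TPM in untreated libraries. No pair of groups overlapped, with untreated on top and IL-33/13/17A at the bottom. Its log2 change was -1.83 ± 0.06 in IL-33/13/17A and -0.48 ± 0.06 in IL-33 cells (SE; limma adjusted p = 1.40e-10 and 0.000172).

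Vcl, which encodes the actin-binding adhesion protein vinculin, averaged 30.9 ± 1.16 TPM in IL-33/13/17A, 44.8 ± 0.327 TPM in IL-33/13, 37.2 ± 2.44 TPM in IL-33/17A, 66.5 ± 1.68 TPM in IL-33 and 93.2 ± 2.04 TPM in untreated cells (SD, n = 3). That is a log2 change of -1.56 ± 0.05 in IL-33/13/17A and -0.48 ± 0.05 in IL-33 cells (SE). In IL-33/13/17A cells Ilk, the integrin-linked kinase, changed by -0.39, the parvin gene Parva by -0.73 and the second PINCH gene Lims1 by -0.62. Of the talins, which bind integrin tails, Tln1 changed by -0.28 and the rarer Tln2 by -0.75. Zyx (zyxin) changed by -0.72, Tgfb1i1 (the paxillin relative Hic-5) by -0.89 and Ptk2 (focal adhesion kinase) by -0.22. In IL-33 cells Tln1, Ptk2, Ilk and Tgfb1i1 were not called, with log2 changes of -0.10, -0.14, -0.22 and -0.20.

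Pxn, the adaptor paxillin, and Vasp, a promoter of filament elongation, were called in none of the 4 comparisons with untreated cells. Pxn averaged 28.1 ± 2.31 TPM in IL-33/13/17A, 29.6 ± 0.924 TPM in IL-33/13, 30.4 ± 0.459 TPM in IL-33/17A, 29.3 ± 1.62 TPM in IL-33 and 28.2 ± 0.484 TPM in untreated cells (SD, n = 3). Under median-ratio scaling it was called higher in IL-33/13 (log2 change 0.21) and in IL-33/17A cells (0.22). Vasp had 119, 95.5 and 85.7 TPM in IL-33/13/17A, 139, 142 and 136 TPM in IL-33/13, 109, 158 and 161 TPM in IL-33/17A, 124, 120.4 and 104 TPM in IL-33 and 125, 117 and 99.1 TPM in untreated libraries. In both groups that the low mitochondrial set splits, the libraries in the set were the higher ones for Vasp. With a term for the set the log2 change of Vasp was -0.34 in IL-33/13/17A against untreated cells and was called (adjusted p = 0.0107, limma), where it was -0.19 without the term. In IL-33/13 cells it was -0.17 with the term and 0.30 without it, not called in either.

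The LIM domain proteins not listed with the focal adhesion proteins held the member with the largest fall under IL-33 alone. Fhl1 (chrX:56731787-56793347, plus strand, mm10), a LIM-only protein abundant in muscle, had 15.1, 17.5 and 17.6 TPM in IL-33/13/17A, 23.7, 22.5 and 23.9 TPM in IL-33/13, 13.3, 11.8 and 12.8 TPM in IL-33/17A, 28.2, 30.1 and 33.2 TPM in IL-33 and 65.0, 67.1 and 70.0 TPM in untreated libraries. No pair of groups overlapped, and the lowest group was IL-33/17A, not the triple combination. Against untreated cells the log2 change was -1.95 ± 0.07 in IL-33/13/17A, -1.49 ± 0.07 in IL-33/13, -2.33 ± 0.07 in IL-33/17A and -1.12 ± 0.07 in IL-33 cells (SE; adjusted p = 2.93e-10, 6.61e-09, 8.43e-11 and 2.70e-07).

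Pdlim5 (chr3:142239590-142395697, minus strand, mm10), a PDZ and LIM protein that binds alpha-actinin, was also lowest in IL-33/17A. It had 17.7, 20.2 and 19.1 TPM in IL-33/13/17A, 22.5, 22.2 and 23.0 TPM in IL-33/13, 16.2, 14.3 and 14.4 TPM in IL-33/17A, 21.2, 21.7 and 23.3 TPM in IL-33 and 29.2, 29.0 and 31.8 TPM in untreated libraries. IL-33/13 overlapped with IL-33, and no other pair of groups overlapped. Against untreated cells the log2 change was -0.63 ± 0.06 in IL-33/13/17A, -0.39 ± 0.06 in IL-33/13, -0.96 ± 0.06 in IL-33/17A and -0.43 ± 0.06 in IL-33 cells (SE; adjusted p = 3.77e-06, 0.000243, 1.15e-07 and 0.000425). Csrp1, a cysteine-rich LIM protein that binds alpha-actinin and zyxin, had 93.2 ± 3.13 TPM in IL-33/13/17A and 249.9 ± 7.21 TPM in untreated cells (SD, n = 3), a log2 change of -1.41. Fhl2, a relative of Fhl1, changed by -1.12 in IL-33/13/17A and by -0.56 in IL-33 cells. Csrp2 and Pdlim7 were called in the 3 combinations and not in IL-33 cells (log2 changes -0.26 and -0.11). Fhl3 was called in IL-33/13/17A cells alone (-0.31), a call lost under median-ratio scaling (-0.18).

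Of the 3 stress fibre scaffolds, Palld (palladin) fell in all 4 conditions, with 8.32 ± 0.406 TPM in IL-33/13/17A and 16.7 ± 0.0398 TPM in untreated cells (SD, n = 3; log2 change -0.92 ± 0.06, SE). Synpo2 and Sorbs2 did not pass the filter of 1 TPM in at least 3 libraries. Synpo2, an actin-bundling protein of muscle, averaged 0.273 ± 0.0255 TPM in IL-33/13/17A, 0.349 ± 0.0313 TPM in IL-33/13, 0.311 ± 0.0440 TPM in IL-33/17A, 0.645 ± 0.0426 TPM in IL-33 and 1.06 ± 0.0799 TPM in untreated cells (SD, n = 3), from 41 to 182 estimated reads. Treated and untreated libraries did not overlap. Without the filter its log2 change was -0.69 in IL-33/13/17A and -0.32 in IL-33 cells. On estimated reads with limma-voom it was -1.82 and -0.66 (adjusted p = 1.28e-10 and 8.45e-05). Sorbs2 rested on 32 to 56 estimated reads and was called in no comparison without the filter or with limma-voom.

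All 4 genes of the myosin motor and its kinase fell in IL-33/13/17A cells, and 3 fell in each other condition. Mylk (chr16:34745210-35002421, plus strand, mm10), the myosin light chain kinase that activates the motor, had 3.22, 3.41 and 3.46 TPM in IL-33/13/17A, 5.95, 5.81 and 6.12 TPM in IL-33/13, 6.29, 5.46 and 5.77 TPM in IL-33/17A, 11.1, 11.7 and 12.1 TPM in IL-33 and 18.4, 17.7 and 19.7 TPM in untreated libraries. Only IL-33/13 and IL-33/17A overlapped. Against untreated cells the log2 change was -2.16 ± 0.06 in IL-33/13/17A, -1.49 ± 0.06 in IL-33/13, -1.52 ± 0.06 in IL-33/17A and -0.63 ± 0.06 in IL-33 cells (SE; adjusted p = 1.09e-11, 6.94e-10, 6.11e-10 and 6.76e-06).

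Myh9 (chr15:77760587-77842176, minus strand, mm10), a heavy chain of non-muscle myosin II, had 135, 117 and 118 TPM in IL-33/13/17A, 167, 175 and 168 TPM in IL-33/13, 184, 188 and 176 TPM in IL-33/17A, 213, 222 and 225 TPM in IL-33 and 265, 259 and 275 TPM in untreated libraries. No pair of groups overlapped. Its log2 change against untreated was -1.10 ± 0.05 in IL-33/13/17A and -0.27 ± 0.05 in IL-33 cells (SE; limma adjusted p = 3.13e-09 and 0.00284). The second heavy chain Myh10 changed by -0.87 and -0.51 in the same comparisons. Myl6, the essential light chain, was called in IL-33/13/17A cells alone, with 945 ± 134 TPM against 1273 ± 48.9 TPM in untreated cells (SD, n = 3; log2 change -0.44). With a term for the low mitochondrial set Myl6 was also called lower in IL-33/13 and IL-33 cells. The log2 changes were then -0.27 and -0.17 (limma adjusted p = 0.009 and 0.02).

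Among the 6 filament binding proteins, 4 fell in all 4 conditions, 1 rose in all 4 and 1 was called in none. The calponins Cnn2 and Cnn3, caldesmon (Cald1) and tropomyosin 4 (Tpm4) changed by -1.11, -0.86, -0.56 and -0.50 in IL-33/13/17A cells. Under median-ratio scaling Cald1 (-0.11) and Tpm4 (-0.09) were not called in IL-33 cells. Tpm3 was not called, with 86.1 ± 8.09 TPM in IL-33/13/17A and 95.1 ± 5.99 TPM in untreated cells (SD, n = 3). The member that rose was Tagln2 (chr1:172500047-172507381, plus strand, mm10), transgelin 2, an actin-binding protein of the calponin family. It had 673, 599.6 and 659 TPM in IL-33/13/17A, 895, 893 and 746 TPM in IL-33/13, 680.1, 754 and 727 TPM in IL-33/17A, 619, 636 and 725 TPM in IL-33 and 491, 501 and 519 TPM in untreated libraries. Every treated library lay above every untreated one, and IL-33/13, whose libraries all belong to the low mitochondrial set, was highest on average. Against untreated cells the log2 change was 0.35 ± 0.08 in IL-33/13/17A, 0.74 ± 0.08 in IL-33/13, 0.52 ± 0.08 in IL-33/17A and 0.39 ± 0.08 in IL-33 cells (SE; adjusted p = 0.00317, 1.11e-05, 0.000279 and 0.00507).

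In actin assembly and turnover, 1 member fell steeply and the other 2 moved little. Lmod1 (chr1:135324807-135368066, plus strand, mm10), leiomodin 1, which nucleates filaments in smooth muscle, had 5.97, 4.76 and 4.83 TPM in IL-33/13/17A, 14.2, 15.8 and 13.4 TPM in IL-33/13, 10.3, 11.5 and 11.5 TPM in IL-33/17A, 23.3, 23.0 and 21.4 TPM in IL-33 and 37.0, 38.0 and 37.4 TPM in untreated libraries. No pair of groups overlapped, and each added cytokine went with a lower level. Against untreated cells the log2 change was -2.64 ± 0.08 in IL-33/13/17A, -1.32 ± 0.08 in IL-33/13, -1.67 ± 0.08 in IL-33/17A and -0.71 ± 0.08 in IL-33 cells (SE; adjusted p = 3.85e-11, 4.85e-08, 5.33e-09 and 4.14e-05).

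Pfn1 (chr11:70651850-70654645, minus strand, mm10), the monomer-binding profilin, had 2174, 1957 and 1929 TPM in IL-33/13/17A, 2356, 2440.1 and 2343 TPM in IL-33/13, 2043, 2258 and 2217 TPM in IL-33/17A, 2197, 2147 and 2140.4 TPM in IL-33 and 2207, 2182 and 2126 TPM in untreated libraries. The IL-33/13 libraries lay above all others, and the other groups overlapped with untreated. Pfn1 rose in IL-33/13 against untreated cells (log2 change 0.13 ± 0.05, SE; limma adjusted p = 0.034), and with a term for the low mitochondrial set the change was -0.01 and was not called. Cfl1, the filament-severing cofilin, was called lower in IL-33/13/17A cells alone (-0.16). Median-ratio scaling lost that call (-0.03) and called it higher in IL-33/13 cells (0.14). Pfn1, Cfl1, Tpm3 and Myl6 have near-identical copies in the genome, so their values are uncertain.

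Rock2, a kinase that promotes myosin contraction, averaged 31.8 ± 3.51 TPM in IL-33/13/17A, 31.1 ± 1.54 TPM in IL-33/13, 33.9 ± 5.09 TPM in IL-33/17A, 47.9 ± 3.49 TPM in IL-33 and 68.9 ± 3.26 TPM in untreated cells (SD, n = 3). Its log2 change was -1.10 ± 0.10 in IL-33/13/17A and -0.52 ± 0.10 in IL-33 cells (SE; limma adjusted p = 2.39e-06 and 0.00377). The second kinase Rock1 changed by -0.39 in IL-33/13/17A cells, and had -0.21, not called, in IL-33 cells.

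Srf (chr17:46548329-46556176, minus strand, mm10) had 95.7, 87.1 and 85.4 TPM in IL-33/13/17A, 104, 114 and 113 TPM in IL-33/13, 86.8, 95.7 and 96.0 TPM in IL-33/17A, 117, 107 and 99.8 TPM in IL-33 and 118, 117 and 101 TPM in untreated libraries. Both groups with IL-17A lay below all untreated libraries, and the other groups overlapped with them. The log2 change was -0.32 ± 0.08 in IL-33/13/17A and -0.06 ± 0.08 in IL-33 cells (SE; limma adjusted p = 0.00414 and 0.683). Under median-ratio scaling Srf was called in none of the 4 comparisons (-0.19, 0.13, -0.15 and 0.00).

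Mrtfa (chr15:81012281-81190758, minus strand, mm10), its coactivator, had 7.36, 7.61 and 6.93 TPM in IL-33/13/17A, 7.91, 7.23 and 7.74 TPM in IL-33/13, 8.55, 7.51 and 7.87 TPM in IL-33/17A, 9.44, 9.69 and 8.69 TPM in IL-33 and 10.4, 9.64 and 9.35 TPM in untreated libraries. The 3 combinations lay below all IL-33 and untreated libraries, which overlapped with each other. The log2 change was -0.38 ± 0.06 in IL-33/13/17A and -0.07 ± 0.06 in IL-33 cells (SE; limma adjusted p = 0.00031 and 0.513).

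Rhoa (chr9:108306129-108337935, plus strand, mm10), the GTPase upstream of the kinases, had 192, 206 and 209 TPM in IL-33/13/17A, 199.5, 191 and 199 TPM in IL-33/13, 202, 192 and 184 TPM in IL-33/17A, 211, 211 and 218 TPM in IL-33 and 232, 232 and 236 TPM in untreated libraries. All treated libraries lay below the untreated ones, by small amounts. The log2 change was -0.20 ± 0.04 in IL-33/13/17A and -0.13 ± 0.04 in IL-33 cells (SE; limma adjusted p = 0.00141 and 0.0515), and under median-ratio scaling it was -0.07 and -0.07, neither called. Rhob (chr12:8497661-8500010, minus strand, mm10), a close relative, had 1707, 1737 and 1712 TPM in IL-33/13/17A, 1891, 1942 and 1896 TPM in IL-33/13, 1665, 1832 and 1822 TPM in IL-33/17A, 2083, 1982 and 1965 TPM in IL-33 and 2013, 2011 and 1923 TPM in untreated libraries. Both groups with IL-17A lay below untreated, and the other groups overlapped with it. The log2 change was -0.21 ± 0.04 in IL-33/13/17A and 0.02 ± 0.04 in IL-33 cells (SE; limma adjusted p = 0.000828 and 0.792). The call in IL-33/13/17A was lost under median-ratio scaling (-0.07).

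**Figure D2:**
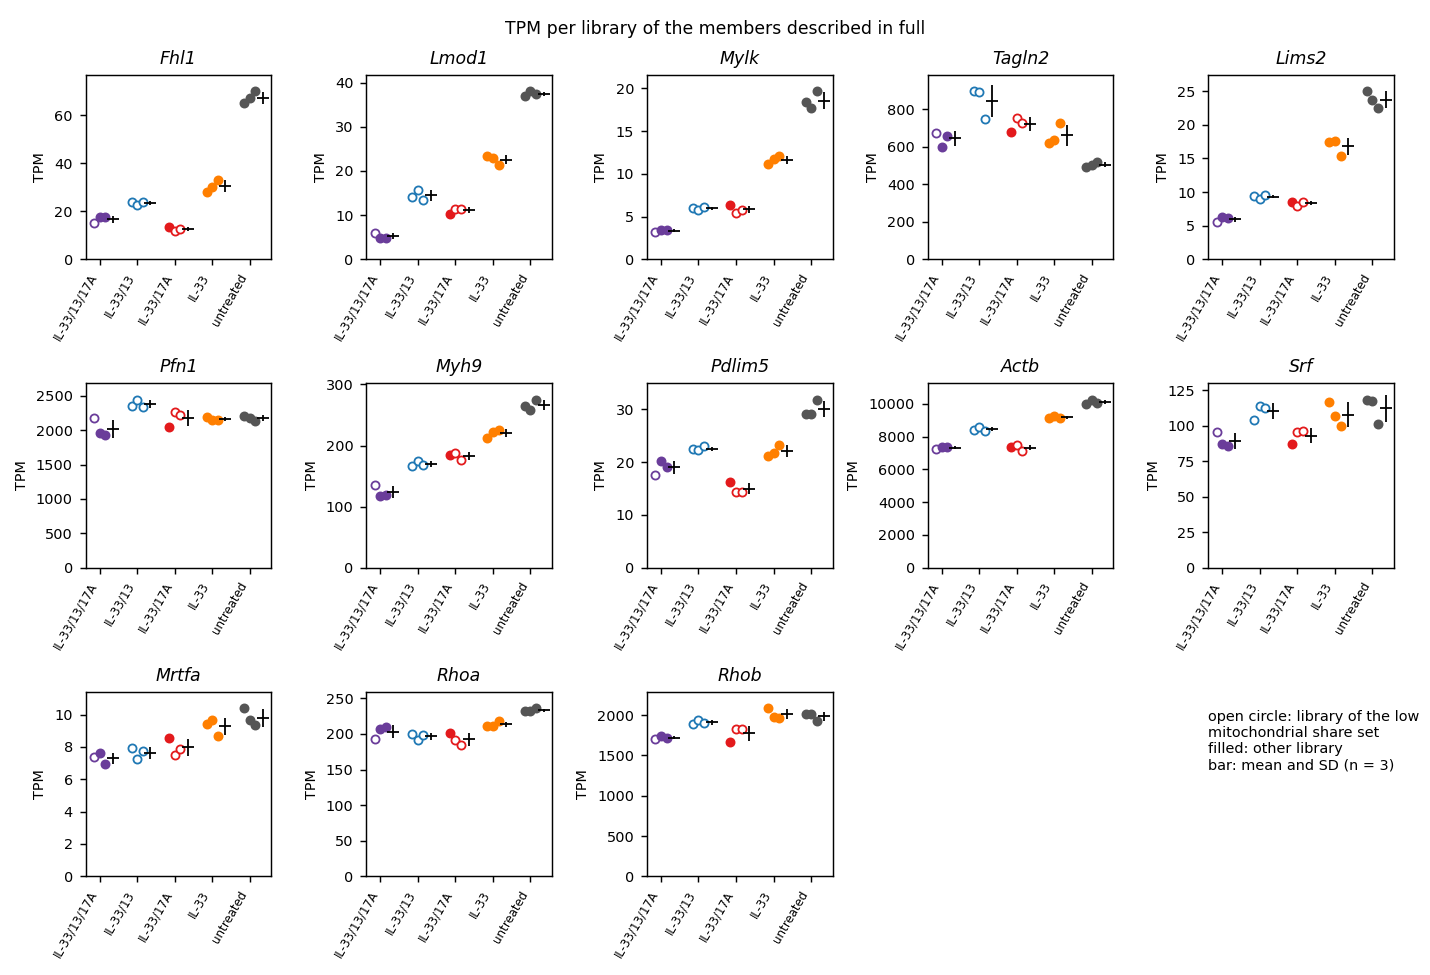
TPM (y axis, from 0) in every library of the 13 members given in full, by group from IL-33/13/17A on the left to untreated on the right. Points are libraries, open where the library belongs to the low mitochondrial set, and the bar beside each group is its mean and SD (n = 3). Lmod1, Mylk and Lims2 are highest in untreated and lowest in IL-33/13/17A libraries, Fhl1 and Pdlim5 are lowest in IL-33/17A libraries, and Tagln2 is lowest in untreated libraries.

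Adding IL-17A lowered many members both without and with IL-13. In IL-33/17A against IL-33 cells 31 of 45 members fell and none rose, where 9.76% of all genes were called (3.54% higher, 6.22% lower), and the median log2 change was -0.32 for the members and -0.05 for all genes. In IL-33/13/17A against IL-33/13 cells 27 fell and none rose, where 7.45% of all genes were called (3.4% higher, 4.05% lower), with medians of -0.23 and 0.01. Under median-ratio scaling 25 fell in the first of these, where 628 of all 13887 genes were lower and 715 higher. Of all calls there 53.2% were higher, against 36.2% on TPM as deposited. These comparisons share no library. The change had the same sign in both for 35 of 45 members, and 22 fell in both. Neither was counted over all genes, so these counts have no background. Fhl1 changed by -1.21 ± 0.07 without IL-13 and by -0.46 ± 0.07 with it, and Lmod1 by -0.96 ± 0.08 and -1.32 ± 0.08 (log2, SE). Lims2 changed by -0.93 ± 0.06 without IL-13 and by -0.57 ± 0.06 with it, and Mylk by -0.89 ± 0.06 and -0.67 ± 0.06. Libraries outside the low mitochondrial set leave 1 IL-33/17A library, and those inside it leave 1 IL-33/13/17A library. Calls from such fits rest on the spread of the other groups and are listed with the alternatives at the end.

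Adding IL-13 also lowered many members. In IL-33/13 against IL-33 cells 30 fell and 2, Tagln2 and Pfn1, rose, where 32.4% of all genes were called (10% higher, 22.4% lower), and the medians were -0.23 for the members and -0.08 for all genes. With a term for the low mitochondrial set 18 fell and none rose, where 761 of all 13887 genes were lower and 659 higher. Under median-ratio scaling 20 fell and 3 rose, where 2048 of all 13887 genes were lower and 2306 higher. Of all calls there 53.0% were higher, against 31% on TPM as deposited. In IL-33/13/17A against IL-33/17A cells 20 fell and 2, Fhl1 and Pdlim5, rose, where 15.8% of all genes were called (6.7% higher, 9.14% lower), with medians of -0.12 and -0.02. With the compared groups only 9 fell and none rose, where 417 of all 13887 genes were lower and 371 higher. Outside the low mitochondrial set IL-33/17A has 1 library and inside it IL-33/13/17A has 1. In such fits each is assumed to vary like the libraries of the other groups. The change had the same sign in both comparisons for 30 of 45 members, and 17 fell in both. Here too the counts over all genes were not made. Mylk changed by -0.86 ± 0.06 without IL-17A and by -0.65 ± 0.06 with it, and Lmod1 by -0.61 ± 0.08 and -0.97 ± 0.08 (log2, SE). Lims2 changed by -0.78 ± 0.06 without IL-17A and by -0.43 ± 0.06 with it, and Myh9 by -0.37 ± 0.05 and -0.57 ± 0.05.

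Of the 45 members, 1, Fhl1, was called in opposite directions when IL-13 was added. The share of all genes called in this way was not counted. IL-13 went with a log2 change in Fhl1 of -0.37 ± 0.07 on IL-33 and of 0.38 ± 0.07 on IL-33/17A (SE; limma adjusted p = 0.00248 and 0.00307). With a term for the low mitochondrial set the change on IL-33 was -0.21 and was not called (adjusted p = 0.151). The interaction, the change by both cytokines less the sum of the changes by each, was 0.75 ± 0.10 for Fhl1 (limma adjusted p = 0.00778). It was the 1 member called there, where 0.338% of all genes were called (0.158% higher, 0.18% lower). The interaction was 0.67 and called under median-ratio scaling, and 0.54 and not called with a term for the low mitochondrial set (adjusted p = 0.468). Outside that set the change in Fhl1 on IL-33/17A was 0.38 (adjusted p = 0.067), inside it 0.28 (adjusted p = 0.11), in limma, each time with 1 library in an arm. Pdlim5 had 0.03 ± 0.06, not called, on IL-33 (called higher under median-ratio scaling, 0.12) and rose by 0.32 ± 0.06 on IL-33/17A, and its interaction of 0.29 was not called. Without replicate 1 of IL-33/17A the interaction was called in 24 members and in 3038 of all 13887 genes tested. Without replicate 1 of IL-33/13/17A it was called in 23 members and in 2281 of all genes. With the compared groups only, neither Fhl1 nor Pdlim5 was called in IL-33/13/17A against IL-33/17A cells (adjusted p = 0.056 and 0.071, limma).

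**Figure D3:**
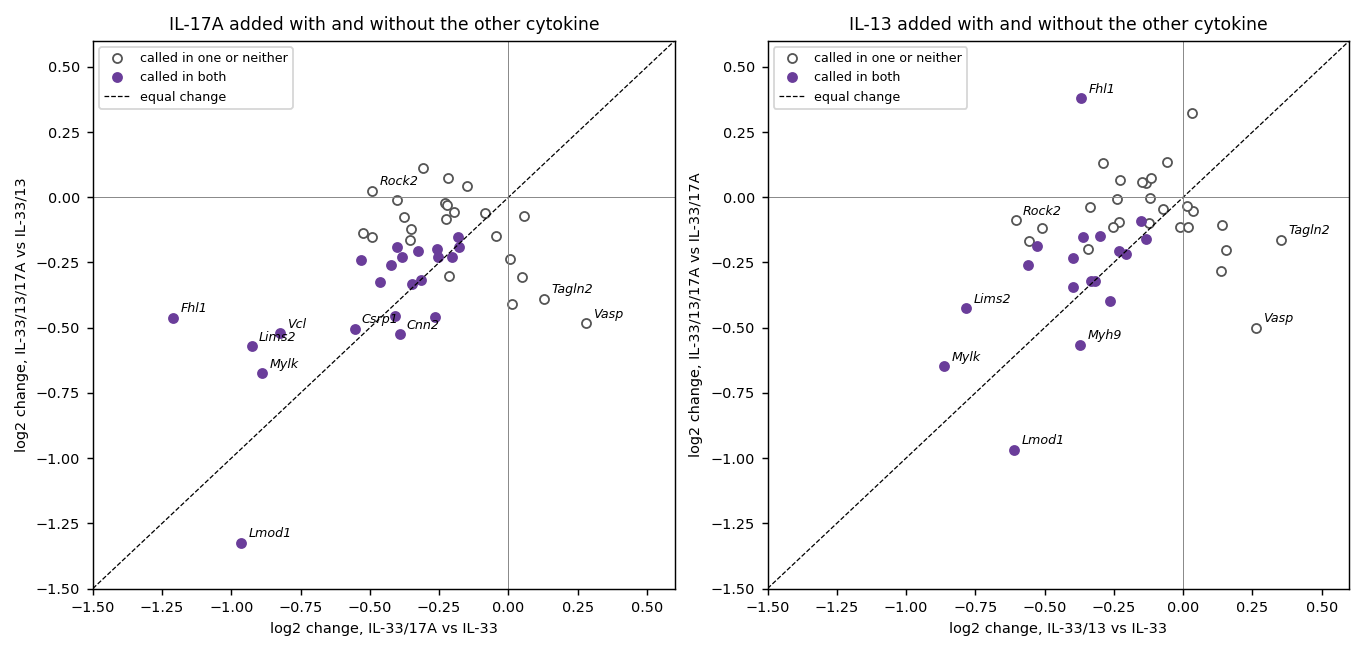
Log2 change of each tested member when IL-17A is added (left; x axis on IL-33, y axis on IL-33/13) and when IL-13 is added (right; x axis on IL-33, y axis on IL-33/17A). Points are members, filled where called in both comparisons, and the dashed line marks equal changes. Most points lie below 0 on both axes, and Fhl1 lies at -1.21 and -0.46 on the left and at -0.37 and 0.38 on the right.

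Some pairs of related members differed in their balance, given as a share of the pair in TPM per exonic length (mean ± SD, n = 3), with no test. Lims2 made up 18.2% ± 0.385 of the 2 PINCH genes in IL-33/13/17A, 24.1% ± 0.682 in IL-33/13, 23.6% ± 0.486 in IL-33/17A, 32.5% ± 2.70 in IL-33 and 36.0% ± 1.25 in untreated cells. Rock2 made up 77.2% ± 0.126 of the sum of Rock1 and Rock2 in IL-33/13/17A, 78.3% ± 0.627 in IL-33/13, 79.9% ± 0.289 in IL-33/17A, 81.7% ± 0.310 in IL-33 and 84.6% ± 0.163 in untreated cells. Tln2 made up 1.66% ± 0.116 of the 2 talin genes in IL-33/13/17A and 3.28% ± 0.0521 in untreated cells. In all 3 pairs every treated library had a smaller share than every untreated library.

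Fhl1 made up 55.2% ± 1.25 of the pair with Fhl2 in IL-33/13/17A, 57.1% ± 0.969 in IL-33/13, 46.3% ± 2.77 in IL-33/17A, 59.2% ± 0.816 in IL-33 and 67.7% ± 0.974 in untreated cells, with the IL-33/17A libraries lowest. The myosins and calponins had no single direction. Myh9 made up 85.9% ± 0.708 of the pair with Myh10 in IL-33/13/17A, 89.2% ± 0.383 in IL-33 and 87.3% ± 0.196 in untreated cells. Cnn2 made up 49.98% ± 2.26 of the pair with Cnn3 in IL-33/13/17A, 58.8% ± 0.705 in IL-33/13 and 54.3% ± 0.488 in untreated cells.

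**Figure D4:**
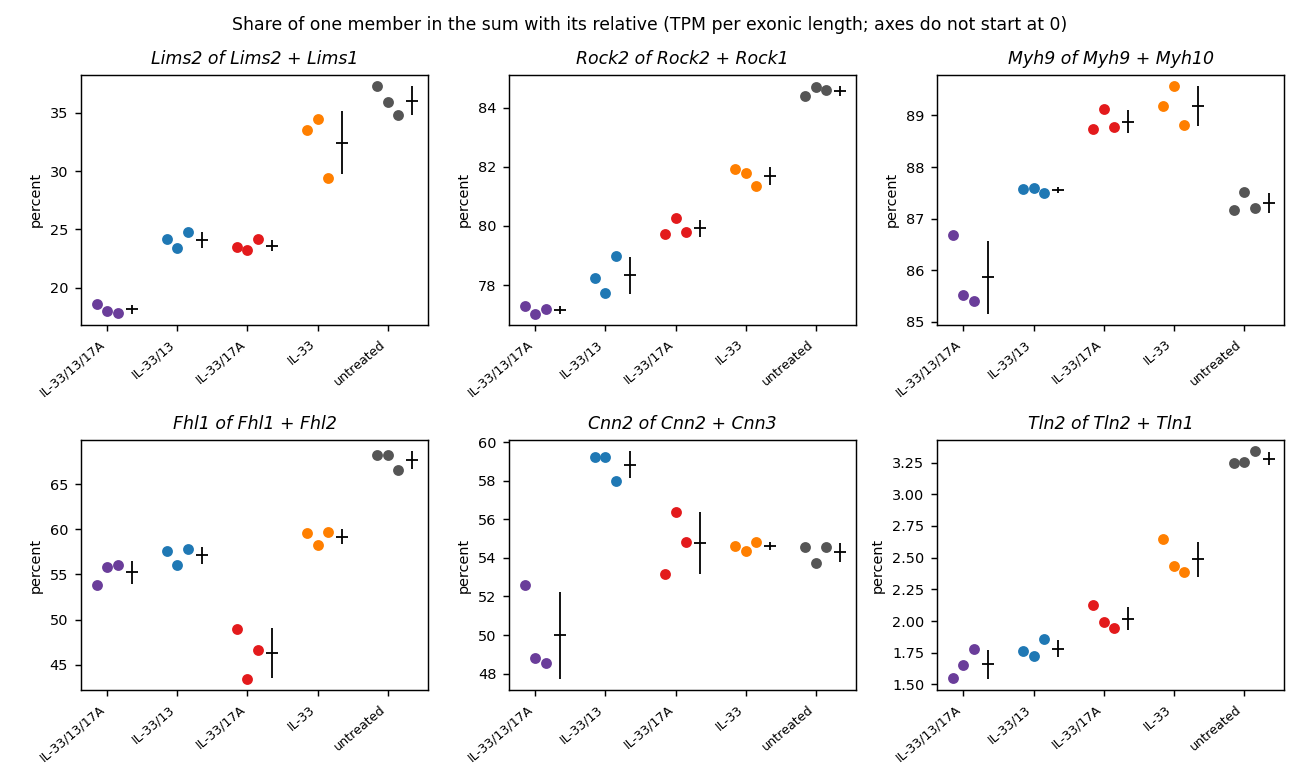
Share (percent, y axis, not from 0) of a member in the sum with its relative, in TPM per exonic length, for 6 pairs by group. Points are libraries and the bar beside each group is its mean and SD (n = 3). Lims2, Rock2 and Tln2 have their highest means in untreated and their lowest in IL-33/13/17A cells, Fhl1 is lowest in IL-33/17A cells, and Myh9 and Cnn2 show no single direction.

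Genes of the pathway outside the module also fell more often than they rose. The counts below stand against 30.1% lower and 12.6% higher over all genes tested in IL-33/13/17A, and 8.28% and 5.92% in IL-33 cells, against untreated cells. Of 34 tested focal adhesion and LIM adaptors, 22 were lower and 2 higher in IL-33/13/17A than in untreated cells (median log2 change -0.27), and 14 lower and 3 higher in IL-33 cells (-0.11). Nexn (nexilin), Tns1 (tensin 1) and the fibronectin receptor subunit Itga5 changed by -2.03, -1.62 and -1.06 in IL-33/13/17A cells, and the integrin subunit Itgb3 by 1.30. Of 42 genes of actin turnover, 28 were lower and 4 higher in IL-33/13/17A (median -0.22), and 14 lower and none higher in IL-33 cells (-0.10). The bundling protein Fscn1 changed by -1.41, gelsolin (Gsn) by -0.86 and plastin 3 (Pls3) by -0.76 in IL-33/13/17A cells. Profilin 2 (Pfn2) changed by 0.56 and LIM kinase 1 (Limk1), which inactivates cofilin, by 0.50.

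Of 12 tested smooth muscle contractile genes, 12 fell in IL-33/13/17A (median -2.01) and 10 in IL-33 cells (-0.50). Among them Cnn1 (calponin 1) and Acta2, which encodes smooth muscle alpha-actin, changed by -2.55 and -2.21 in IL-33/13/17A cells.

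Summed markers of smooth muscle and pericytes, of fibroblasts and of mesothelial cells fell with the module. The mesothelial sum was 16.2 to 18.5 TPM in IL-33/13/17A, 16.8 to 18.8 TPM in IL-33 and 28.9 to 33.4 TPM in untreated libraries. Neutrophil and endothelial sums lay above untreated in all treated groups, and macrophage and epithelial sums overlapped with untreated in some groups. The 8 listed smooth muscle and pericyte markers, of which Myh11, Des, Actg2 and Myocd are also in the contractile list, summed to 125 to 137 TPM in IL-33/13/17A, 200.2 to 204 TPM in IL-33/13, 173 to 201 TPM in IL-33/17A, 357 to 372 TPM in IL-33 and 583 to 603 TPM in untreated libraries, and all 6 tested were lower in each treated condition than in untreated cells. The smooth muscle regulator Myocd averaged 0.0547 TPM and the pericyte gene Rgs5 0.355 TPM over all libraries. Fibroblast markers summed to 10327 to 10929 TPM in IL-33/13/17A, 11877 to 12243 TPM in IL-33/13, 12303 to 13826 TPM in IL-33/17A, 13665 to 14529.8 TPM in IL-33 and 15388 to 16799 TPM in untreated libraries. The smooth muscle and pericyte sum and the fibroblast sum lay below untreated in all treated groups. Macrophage markers summed to 16324 to 16949.5 TPM in IL-33/13/17A, 16578 to 16814 TPM in IL-33/13, 17392 to 18509 TPM in IL-33/17A, 17488 to 17755 TPM in IL-33 and 17994 to 18284 TPM in untreated libraries, with IL-33/17A overlapping untreated libraries. In IL-33/13/17A against untreated cells 8 of 10 fibroblast markers were lower and 2 higher, and 6 of 14 macrophage markers were lower and 4 higher. The part of these cells in the falls of the module was not tested.

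**Figure D5:**
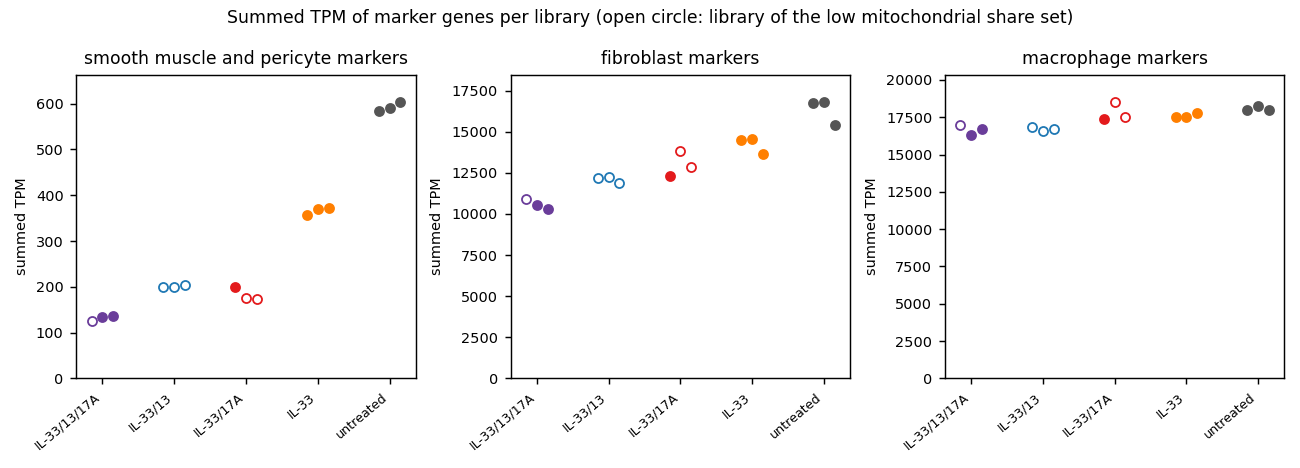
Summed TPM (y axis, from 0) of smooth muscle and pericyte, fibroblast and macrophage markers in each library, by group from IL-33/13/17A on the left to untreated on the right. Points are libraries, open where the library belongs to the low mitochondrial set. The smooth muscle and pericyte sum and the fibroblast sum are highest in untreated and lowest in IL-33/13/17A libraries.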

How the data were processed

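RNA of 15 libraries was sequenced on an Illumina NovaSeq per the labels' protocols. The authors deposited TPM per gene, with 1 file a library. HISAT2, without a version, and the build mm10 are named per the submitters' processing notes. How reads were counted, with or without strand and where they match several genes, is not given in these sources, so overlapping, antisense and near-identical genes are uncertain. The deposited TPM are divided by the span of the gene, introns included, and 17882 of the 18078 genes have the same start and end in GENCODE vM21. From the spans, 90.5% to 91.6% of low values (under 20 reads) came out whole within 0.05, which gave the estimated reads and a depth of 10554595 to 15123270 reads on genes per library. The total of TPM is fixed in each library, so each value depends on all other genes.

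Genes with at least 1 TPM in 3 or more libraries (13887) were fitted with limma 3.58.1 (R 4.3.3, trend and robust) on log2(TPM + 1) over all 15 libraries, and p-values were adjusted by Benjamini-Hochberg over all tested genes in each of 9 comparisons. Fold changes on this scale understate low genes. Summaries and figures used Python 3.11.15, pandas 2.3.3, numpy 2.4.6 and matplotlib 3.10.9, and the fit was tested on simulated data. Members, lists and tests were chosen with earlier results of these data known, and the mitochondrial threshold of 4.5% likewise. Values in every library are given for members among the 3 largest rises or falls called in the IL-33 comparison, the 4 steps that add a cytokine or the interaction, and for Actb, Srf, Mrtfa, Rhoa and Rhob. Those of Vasp were added after they were seen. Of other lists, at most the 3 largest rises and falls called, or defining genes, are named. The result of a further gene list is not reported here.

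Of the lists not described with the results, in IL-33/13/17A and in IL-33 cells against untreated cells, 3 and 0 of 13 mitochondrially encoded genes were lower, and 2 and 2 of 4 mesothelial markers. The 1 neutrophil marker tested, S100a8, was higher in both. Of 3 endothelial markers tested, 1 was higher and 1 lower in IL-33/13/17A and 1 higher in IL-33 cells, and of 2 epithelial markers tested, 2 and 0 were higher.

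Alternatives were a pseudocount of 0.1, no filter, a filter per exonic length, median-ratio scaling, the compared groups only, a term for the low mitochondrial set, libraries outside or (chosen after seeing the data) inside it, no trend and robust option, each library left out, and limma-voom on estimated reads (chosen after seeing the data). Replicates were numbered in accession order and not paired.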

Additional observations from a re-analysis of the deposited data

Results flagged for a closer look

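The change of Fhl1 with IL-13 differed between cells without and with IL-17A. The interaction was 0.75 ± 0.10 on the log2 scale (SE; limma adjusted p = 0.00778). With a term for the low mitochondrial set it was 0.54 and was not called (adjusted p = 0.468), nor was the change on IL-33/17A called with the compared groups only (adjusted p = 0.056). The 3 IL-33/13 libraries, with 22.5 to 23.9 TPM, lay below the 3 IL-33 libraries, with 28.2 to 33.2 TPM. The 3 IL-33/13/17A libraries, with 15.1 to 17.6 TPM, lay above the 3 IL-33/17A libraries, with 11.8 to 13.3 TPM. Groups of 3 libraries were not tested for single libraries that stand apart.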

How the results depend on the processing

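Of 6255 alternative values of single members, 5646 kept their direction and side of the threshold, 294 lost a call, 146 gained one, and 5 changed sign where the member was called on TPM as deposited or under the alternative. Another 164 changed sign but were called in neither. No member was called in opposite directions. The 5 included Cfl1 in IL-33/13 against untreated cells, with 0.138 under median-ratio scaling and 0.124 under limma-voom. With a term for the low mitochondrial set the others were Pfn1 in IL-33/13 against untreated (-0.0149) and against IL-33 (-0.00822) and Rock1 in IL-33/13 against IL-33 cells (0.0213). Members called were 19 in IL-33/17A against IL-33 and 14 in IL-33/13/17A against IL-33/17A outside the set, and 10 in IL-33/13/17A against IL-33/13 and 11 against IL-33/17A inside it. A term for the set gave 18 in IL-33/13 against IL-33 and 0 for the interaction. With the compared groups only, 9 were called in IL-33/13/17A against IL-33/17A. The interaction had 4 under median-ratio scaling and 17 under limma-voom. The cause of these differences was not tested.

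Leaving out each library in turn gave 40 to 42 members called in IL-33/13/17A, 36 to 37 in IL-33/13, 37 to 40 in IL-33/17A and 26 to 28 in IL-33 against untreated cells. It gave 29 to 37 in IL-33/17A against IL-33, 26 to 30 in IL-33/13 against IL-33, 20 to 28 in IL-33/13/17A against IL-33/13, 15 to 22 in IL-33/13/17A against IL-33/17A and 1 to 24 for the interaction (24 without IL-33/17A replicate 1, 23 without IL-33/13/17A replicate 1 and 2 without IL-33/13 replicate 3). Over all genes, calls moved by more than 1.5 times as follows. IL-33/13 had 6887 calls against untreated and 4506 against IL-33 cells, and 3549 and 1420 with a term for the set. IL-33/17A had 5229 against untreated, and 3452 with the term and 2139 outside the set. Against IL-33 it had 1355, and 835 with the term, 316 outside the set, 520 with the compared groups only, and with 1 library left out 810 to 3057, the highest without IL-33/17A replicate 1. IL-33/13/17A had 1034 against IL-33/13, and 566 with the term, 193 inside the set, 574 with the compared groups only, 1631 under limma-voom, and with 1 library left out 492 to 1962, the highest without IL-33/13/17A replicate 1. Against IL-33/17A it had 2199, and 839 outside and 594 inside the set, 788 with the compared groups only and 1455 without IL-33/13/17A replicate 2. The interaction had 47, and 2 with the term, 97 under median-ratio scaling, 1256 under limma-voom, and with 1 library left out 21 to 3038, the highest values being 3038 without IL-33/17A replicate 1 and 2281 without IL-33/13/17A replicate 1. No paired analysis was possible because the labels give no replicate numbers.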
